A study of Mus musculus with 4 samples.

Results

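The cytosolic ribosomal protein genes were examined in total thymocytes, the cells recovered from the thymus, of Atg16l1 hypomorph mice and of control mice, which the labels call wild type. Hypomorph denotes an allele that leaves a gene with reduced activity. Neither the making of the allele nor the strain of the mice is stated in the sources used here. Each group held 2 independent mice aged 7 weeks, 1 male and 1 female, and each mouse gave 1 Affymetrix array. The labels do not say which array came from which sex, so sex was not entered as a covariate. It was not inferred from sex-linked genes.

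Genes were taken where a probe set of the array carried a single symbol formed from Rpl or Rps and a number, with an optional letter and an optional l at the end, or one of the symbols Rplp0, Rplp1, Rplp2 and Rpsa. The Rps6k kinases, Rps19bp1 and pseudogene symbols were left out. The rule found 100 probe sets for 46 genes, among 18193 genes named by the arrays, and the probe set with the brightest mean over the 4 arrays stood for each gene. Another 110 probe sets listed a ribosomal protein symbol beside further symbols and were not used to name a gene. Several well-known ribosomal proteins, Rplp1, Rpl3, Rpl5, Rpl10 and Rps27a among them, had no probe set that fitted the rule and are not analysed here. Rps4l, which fitted it, is listed as a transcribed pseudogene in the RefSeq gene table.

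Ribosomal proteins are the protein part of the cytosolic ribosome. The large subunit (Rpl genes) forms peptide bonds, the small subunit (Rps genes) reads the messenger RNA, and the stalk proteins Rplp0 and Rplp2 recruit elongation factors to the large subunit. In vertebrates these messenger RNAs begin with a C followed by a run of pyrimidines, the 5' terminal oligopyrimidine (TOP) motif, through which mTOR and Larp1 adjust their translation. Atg16l1 is a core protein of autophagy, the process that delivers cell components, ribosomes included, to lysosomes. Dividing thymocytes make many ribosomes. The arrays measured RNA level and not translation or protein.

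The start sites of a few of these genes are shown because the TOP run is the feature the group is known for. RefSeq promoter sequences of build GRCm38.p6 were at hand for 40 of the 46 genes, with 48 annotated starts. Each sequence runs 5' to 3' on the strand of the gene, from 40 bases before the annotated start to 20 bases from it onwards. Capitals mark a run of at least 6 C or T that begins with C and starts within 10 bases of the annotated start.
Rpl13a, chr7:45128726-45128785, minus strand: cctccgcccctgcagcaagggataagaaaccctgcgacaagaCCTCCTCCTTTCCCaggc
Rps10, chr17:27635225-27635284, minus strand: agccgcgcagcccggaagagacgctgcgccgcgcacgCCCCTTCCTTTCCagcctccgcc
Rplp2, chr7:141447611-141447670, plus strand: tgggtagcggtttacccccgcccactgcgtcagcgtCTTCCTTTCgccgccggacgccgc
Rps18, chr17:33955646-33955705, minus strand: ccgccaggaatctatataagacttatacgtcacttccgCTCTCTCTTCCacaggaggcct
Rps28, chr17:33824543-33824602, minus strand: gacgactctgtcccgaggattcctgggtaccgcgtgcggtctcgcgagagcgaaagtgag
Rpl3l, chr17:24727786-24727845, plus strand: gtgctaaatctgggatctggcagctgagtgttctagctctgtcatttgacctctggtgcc
Such a run was present at 20 of the 48 starts (41.7%), against 5844 of 32851 starts of all genes (17.8%). Rps28, whose probe set is among the brightest, and Rpl3l, a form of Rpl3 found in heart and skeletal muscle, have none in this window. The letters CCGGAAG, searched on both strands of the 300 bases around the start (250 before, 50 after), were present at 20 member starts (41.7%) and at 2910 of all starts (8.86%). These are matches of letters to annotated starts, which can be off by some bases, and nothing about binding or translation was measured.

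The scale of the arrays bears on every value. The median signal of the 4 arrays was 38.4 and 27.4 on the hypomorph arrays, against 23.5 and 27.4 on the control arrays, and thus no common median had been imposed before deposition. The targeted gene, Atg16l1, gave 108 and 70.8 on the hypomorph arrays, against 184 and 241 on the control arrays. The groups did not overlap, and its change on centred values was -1.57 ± 0.18 log2 units (SE; limma adjusted p = 0.0142), lower in the arrays labelled hypomorph. With only 2 arrays a group, an exact permutation test of a single value could not go below p = 0.333, so tests rest on limma, which pools the spread of all probe sets. Signals of different probe sets are not levels on one scale and are used below only to say how bright a probe set was.

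Most of the members were read by some of the brightest probe sets of the array. Of the 46 genes, 33 had a mean signal over 4000, between 5165 and 12832, and 31 of these were among the 50 brightest genes. Rps29, a small-subunit zinc-binding protein, gave the brightest signal of any gene on average. The other 13 members had mean signals of 2043 or less, and 9 of them also appear on a brighter probe set with several symbols, whose means ran from 4963 to 9318. For these 9 genes, Rps6 and Rps16 among them, the signal used here is therefore that of a dim probe set. The limit of 4000 was chosen after the signals were seen, and it falls in the gap between Rps26 at 5165 and Rps27l at 2043. Among the 33 bright members, 14 were read by a probe set whose suffix, x for 12 and s for 2, marks probes that may match other genes or transcripts.

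**Figure D1:**
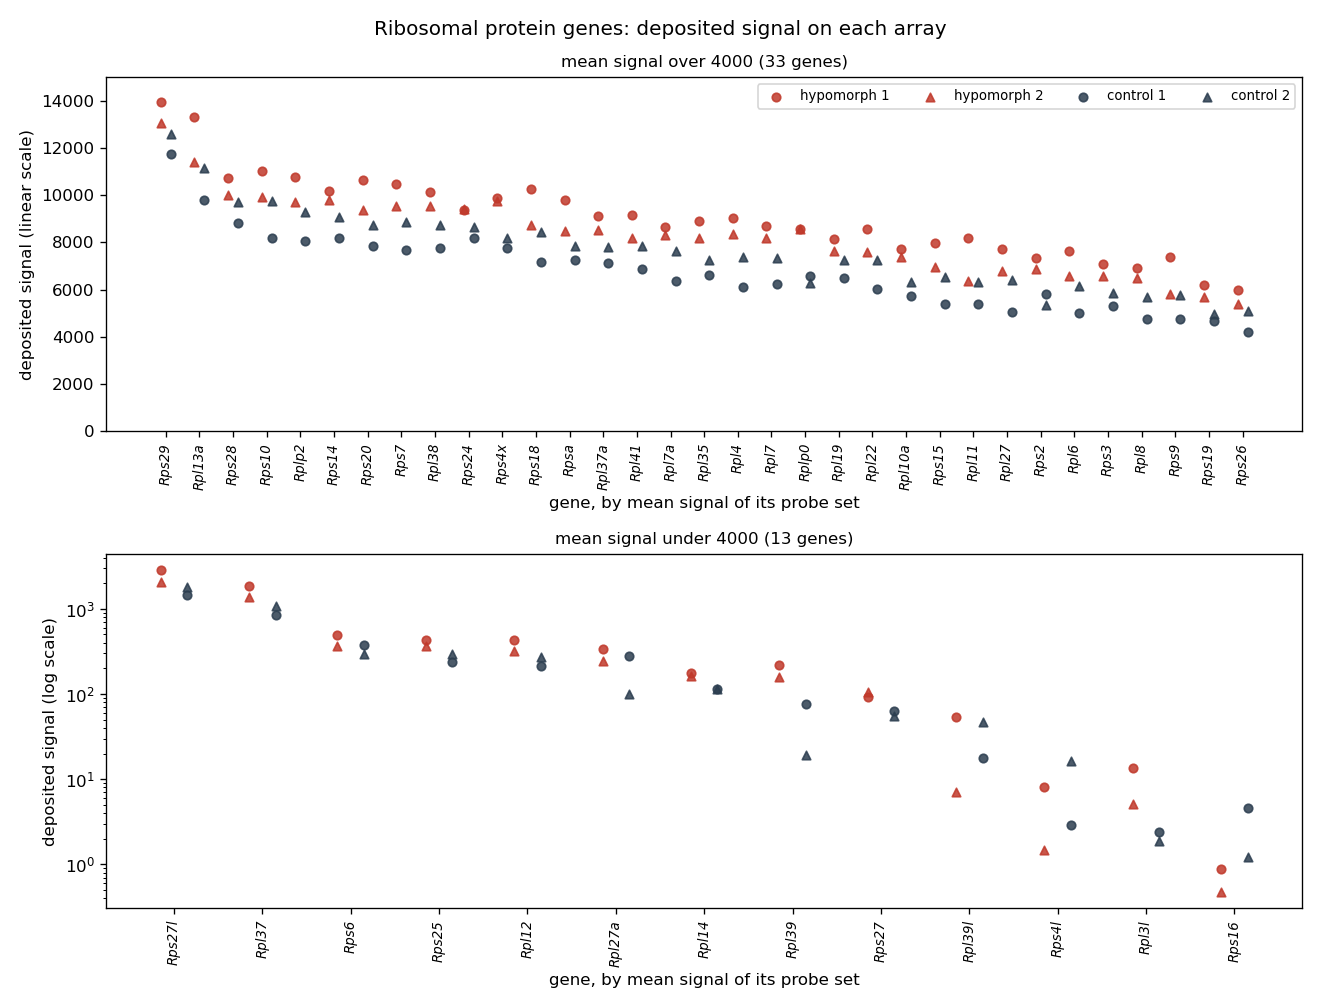
Deposited probe set signals of the 46 ribosomal protein genes on the 2 hypomorph and 2 control arrays, 1 point per array. The 33 genes with means over 4000 are on a linear axis, where both hypomorph points lie above both control points for every gene, and the 13 dimmer genes are on a log axis.

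Taken as deposited, the ribosomal protein signals were higher in the hypomorph arrays, but by less than those of the typical gene. All 33 bright members had higher signals on both hypomorph arrays than on both control arrays, with ratios of group means from 1.11 to 1.33. Of the 42 members bright enough to be tested, 40 lay higher without overlap, where 74.3% of the 10232 tested genes did the same. Their median change was 0.30 log2 units and that of all tested genes was 0.54. The scale thus decides the direction: with each array centred on the common median, the member median was -0.03 (17 genes above 0 and 25 below), and set against the median change of all tested genes, 0.21, it was -0.24, with 34 of 42 members below that gene. No member passed an adjusted p of 0.05 on centred values by limma, where 0.0622% of the 22519 tested probe sets did. At an unadjusted p under 0.05, 2 members passed, Rpl39 and Rpl37, while 19.2% of all tested genes did.

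Among bright probe sets, the gap to the median gene differed with how bright they were. The 33 bright members had a median centred change of -0.04, and all of them lay below the median gene. The 9 tested members with a mean signal under 4000 had a median of 0.28, and 8 of them lay above it. Among other genes the median was higher at lower signal over the brighter ranks only: it was -0.09 for the 19 others among the 50 brightest, 0.06 for the 48 others down to rank 100, 0.14 for the next 100 genes, 0.19 for the 299 after these, 0.22 for the next 499 and 0.25 for the next 1000. It stayed at 0.25 for the 2996 genes after these and was 0.17 for the 5229 dimmest, among whose ranks Rpl14, Rpl39 and Rps27 lie. The 19 include Eef1a1, Tpt1, Actb, Tmsb4x, Ptprc and Thy1, among them genes of translation, the cytoskeleton and the T cell surface, and also Rps3a1, a ribosomal protein gene whose symbol falls outside the rule. Whether bright spots near saturation compress differences on these arrays was not tested.

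**Figure D2:**
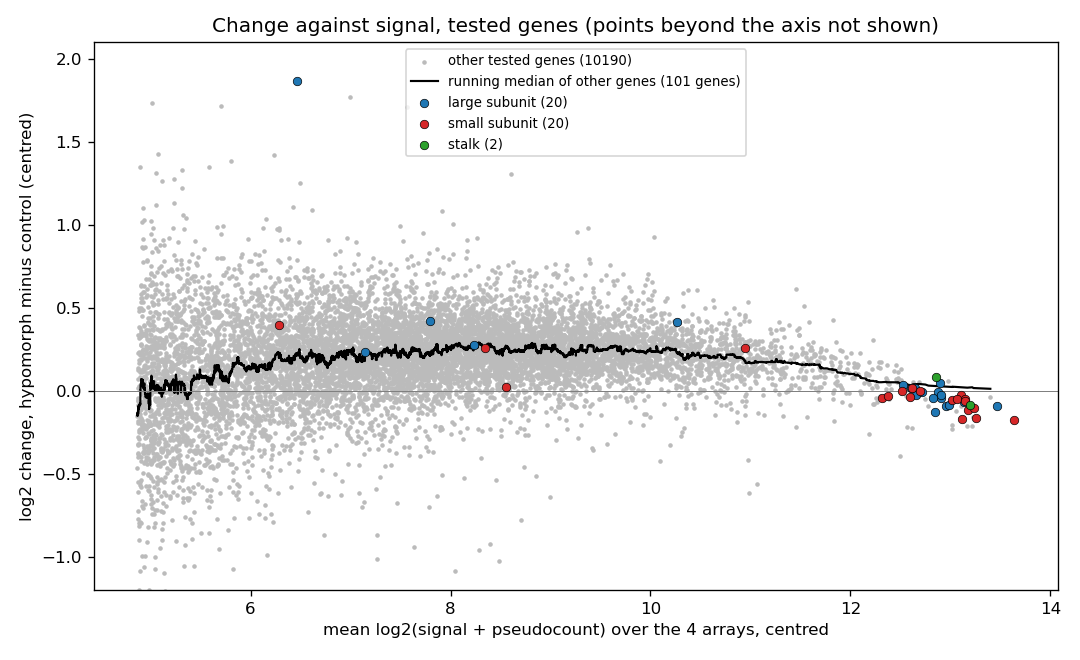
Change in hypomorph over control arrays on centred log2 values against mean log2 signal, with other tested genes in grey, their running median as a line, and ribosomal protein genes coloured by large subunit, small subunit and stalk. The bright members sit at the right end, where the line drops, with a median of -0.04, and Rpl39 stands at 1.87.

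Since brightness moved with the change, each array was also adjusted to genes of like signal, by subtracting the running median over the 300 tested genes nearest in mean signal, ribosomal protein genes left out. On this scale the median change of the 42 members was -0.17, against -0.0019 for all tested genes, with 35 members below 0 and 7 above. For 29 members, all of them bright, both hypomorph arrays lay below both control arrays, a state that 18.8% of all tested genes showed. It was more frequent among bright genes. Of the 19 other genes among the 50 brightest 16 showed it, and of the 86 other genes over 4000 it was 38. Again no member passed an adjusted p of 0.05 by limma, where 0.0222% of probe sets did, and the lowest adjusted p of a member was 0.687. At an unadjusted p under 0.05, 9 members were lower, where 3.26% of tested genes were, and 1, Rpl39, was higher, where 2.66% were. That count of 10 rests on single arrays, since it was 1 without hypomorph 1, 20 without hypomorph 2, 2 without control 1 and 6 without control 2. The comparison is loose at the bright end, however. All 33 bright members shared a single window of neighbours with signals down to about 2100, so each had the same 0.14 subtracted from its centred change.

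With nearer neighbours the gap closed. The median of the 42 members was -0.22 against 1000 neighbours, -0.17 against 300, -0.09 against 100 and -0.01 against 25, and 0.0022 when a straight line through the 300 neighbours was read at each gene's own signal. Quantile normalization, which forces the 4 arrays to one distribution, gave 0.02 when followed by the 300-neighbour adjustment. With 25 neighbours 26 members lay below 0 and 16 above, and with the line 19 lay below and 23 above. Neither direction thus held at these settings. The brightest neighbour, Trbv1, had a mean signal of 9610, so Rps29, Rpl13a, Rps28 and Rps10 were set against dimmer genes only. The 25-neighbour and line settings were added after the data had been seen. On the 300-neighbour scale the 31 members among the 50 brightest genes had a median of -0.18 and the 19 other genes there one of -0.23, and 10 of the 19 had an unadjusted limma p under 0.05 on the low side.

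**Figure D3:**
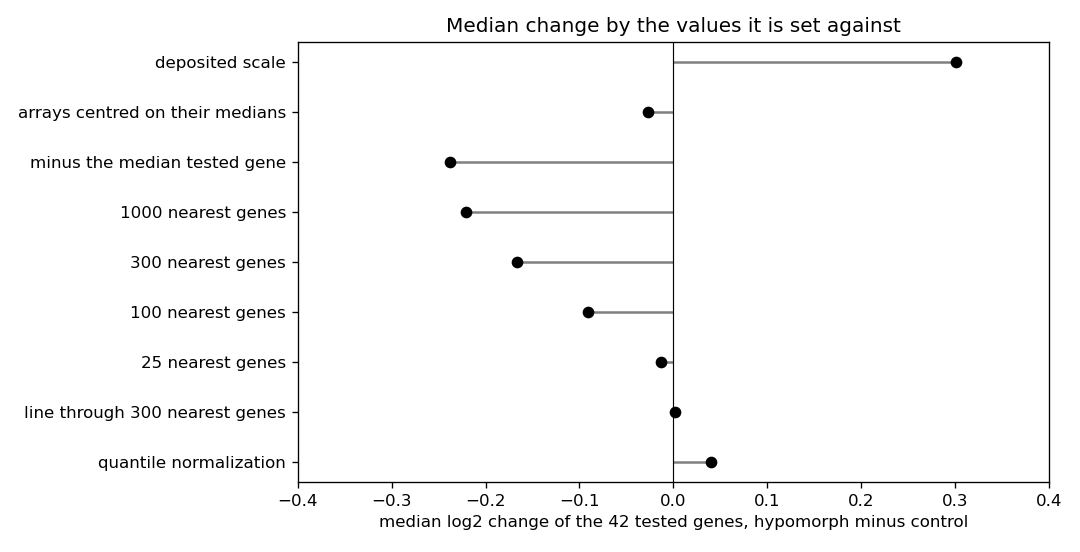
Median change of the 42 tested ribosomal protein genes in hypomorph over control arrays under 9 references, in log2 units. The median ran between 0.30 on the deposited scale and -0.24 against the median gene, and stood at -0.01 and 0.0022 against the nearest 25 genes and the line.

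The arrays of one group did not act alike. Hypomorph 1 gave the highest signal of the 4 arrays for 31 of the 33 bright members and control 1 the lowest for 31. The median signal of these members was 8898 and 8321 on the hypomorph arrays, against 6584 and 7383 on the control arrays. Divided by the median signal of the array, the same values were 232 and 304 on the hypomorph arrays, against 280 and 270 on the control arrays, so hypomorph 1 was the lowest of the 4 and hypomorph 2 the highest. The 46 genes held 4.86% and 5.61% of the summed gene signal on the hypomorph arrays, against 6.37% and 5.88% on the control arrays. Hypomorph 2 and control 2 had the same array median of 27.4. Between these, the bright members differed by 0.11 log2 units, all tested genes by 0.20 and the 19 other brightest genes by 0.07, all higher on hypomorph 2. Leaving out hypomorph 1 gave a centred median of the members of 0.13, where leaving out hypomorph 2 gave -0.18. The centred medians of all tested genes were then 0.26 and 0.17, so the member median lay below that of all genes both times.

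**Figure D4:**
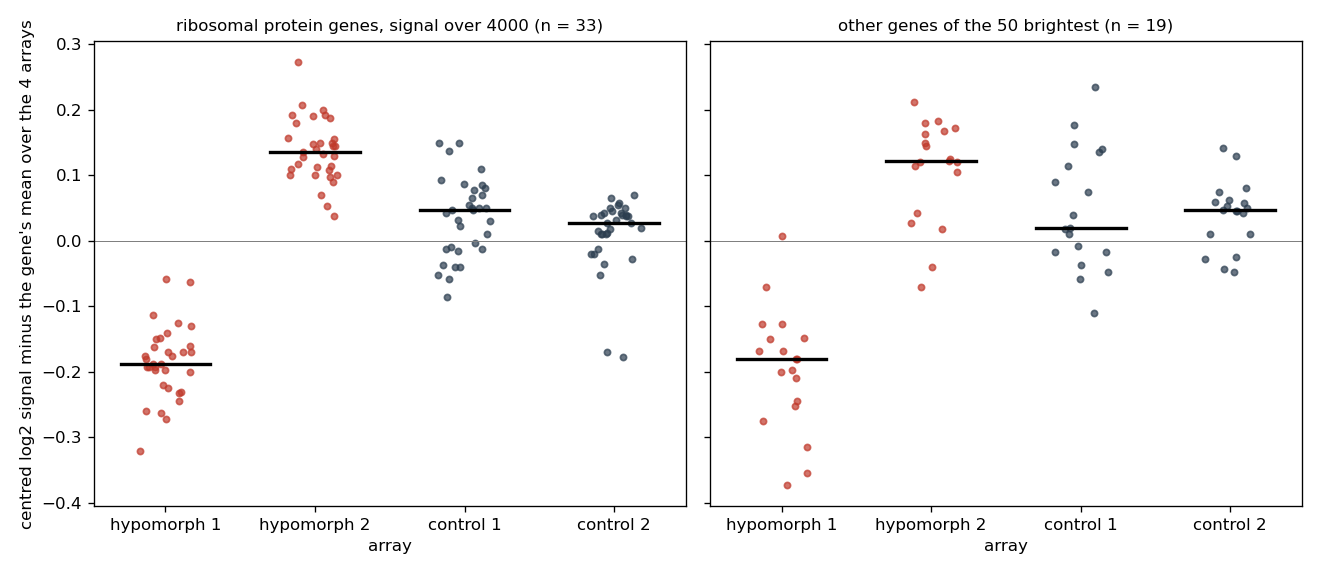
Centred log2 signal minus the mean of the gene over 4 arrays, for the 33 bright ribosomal protein genes and the 19 other genes among the 50 brightest, by array, with bars at the medians. Both sets lie together on each array, at medians of -0.18 for each on hypomorph 1 and of 0.14 and 0.12 on hypomorph 2, against 0.05 and 0.02 on control 1 and 0.03 and 0.05 on control 2.

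The medians of both subunits lay close together. The 20 tested large-subunit genes had a median change of -0.14 on the 300-neighbour scale, with 15 below 0, and the 20 small-subunit genes one of -0.18, with 18 below 0. Their centred medians were -0.01 and -0.04. Among bright members alone the 300-neighbour medians were -0.17 for 15 large-subunit genes and -0.19 for 16 small-subunit genes. The difference between the subunits was not tested. Both stalk genes were bright. Rplp0 gave 8574 and 8579 on the hypomorph arrays, against 6584 and 6284 on the control arrays, and Rplp2 had 10787 and 9721 on the hypomorph arrays, against 8044 and 9284 on the control arrays. As deposited, the ratio of group means was 1.33 for Rplp0 and 1.18 for Rplp2. The centred changes were 0.09 ± 0.19 for Rplp0 and -0.08 ± 0.18 for Rplp2 (SE, 2 arrays a group), and both had overlapping groups. On the 300-neighbour scale Rplp2 stood at -0.22 ± 0.09 with groups apart and Rplp0 at -0.05 ± 0.13 with groups that overlapped.

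Of the small-subunit genes, the lowest values on the 300-neighbour scale belonged to Rps29, Rps24 and Rps28. Rps29 gave 13935 and 13074 on the hypomorph arrays, against 11731 and 12586 on the control arrays. Its change was -0.32 ± 0.10 on that scale (limma adjusted p = 0.687) and 0.15 as deposited, so the sign again depends on the scale. Rps24, a protein needed to process the small-subunit RNA and mutated in some human patients with Diamond-Blackfan anaemia, gave 9355 and 9436 on the hypomorph arrays, against 8192 and 8641 on the control arrays. Rps28 gave 10717 and 10026 on the hypomorph arrays, against 8817 and 9709 on the control arrays. Their changes on the 300-neighbour scale were -0.31 for Rps24 and -0.30 for Rps28. Rps14 and Rps10 followed at -0.26 and -0.24. For all 5 genes hypomorph arrays stood above control arrays as deposited, as for 74.3% of all tested genes. On the 300-neighbour scale hypomorph arrays stood below control arrays, as for 18.8% of all tested genes and 16 of the 19 other brightest genes. The 5 were picked as lowest on that scale, so the latter follows largely from the choice.

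Other small-subunit genes with known separate roles did not stand out from these. Rps19, another gene mutated in human Diamond-Blackfan anaemia, had 6196 and 5666 on the hypomorph arrays, against 4656 and 4978 on the control arrays, a 300-neighbour change of -0.17 ± 0.10. Rpsa, the laminin-receptor protein of the small subunit, whose loss in humans leads to absence of the spleen, had 9812 and 8498 on the hypomorph arrays, against 7244 and 7844 on the control arrays. Rps4x, the X-linked copy of Rps4, had 9861 and 9774 on the hypomorph arrays, against 7764 and 8174 on the control arrays. The changes of Rpsa and Rps4x were -0.19 and -0.17. Rps6, the substrate of S6 kinase downstream of mTOR, was read by a dim probe set at 486 and 369 on the hypomorph arrays, against 374 and 292 on the control arrays, where the groups overlapped.

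Among large-subunit genes, Rpl13a and Rpl19 are named for the brightest probe set and the lowest 300-neighbour change. Rpl13a, which in human myeloid cells also leaves the ribosome to silence inflammatory transcripts, had 13315 and 11427 on the hypomorph arrays, against 9805 and 11166 on the control arrays, a 300-neighbour change of -0.23 ± 0.08. Rpl19 had 8136 and 7645 on the hypomorph arrays, against 6488 and 7262 on the control arrays, a change of -0.27 ± 0.10. Rpl22, which mice need for the development of alpha-beta T cells, had 8574 and 7575 on the hypomorph arrays, against 6026 and 7239 on the control arrays, a change of -0.18 ± 0.08. Rpl11, which binds Mdm2 and so stabilises p53 when ribosome assembly fails, had 8172 and 6366 on the hypomorph arrays, against 5388 and 6313 on the control arrays, a change of -0.16 ± 0.08. All 4 had both hypomorph arrays above both control arrays as deposited, as did 74.3% of all tested genes, and no change passed the test.

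**Figure D5:**
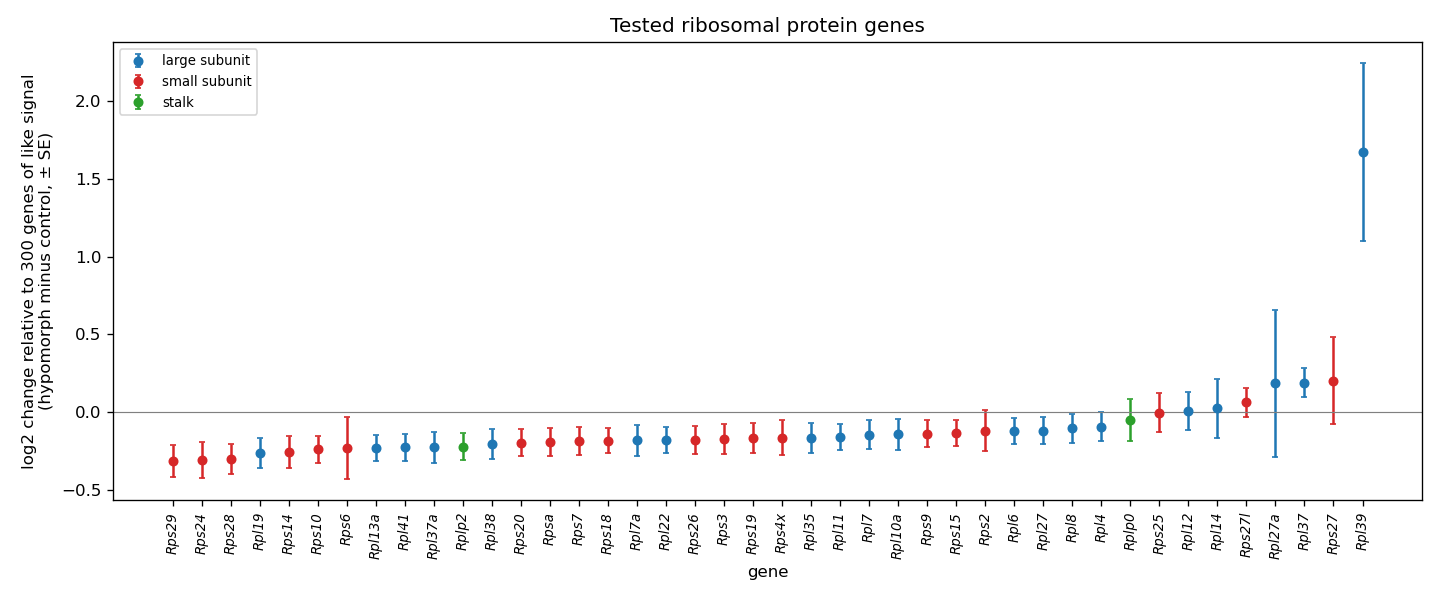
Change of the 42 tested ribosomal protein genes in hypomorph over control arrays relative to their 300 nearest genes in signal, in log2 units with standard errors, ordered by size. The points run between -0.32 for Rps29 and 1.67 for Rpl39, and 35 of 42 lie below 0.

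The highest value in the group belonged to Rpl39, a small protein that lines the exit tunnel of the large subunit. Its probe set gave 216 and 160 on the hypomorph arrays, against 76.8 and 19.1 on the control arrays. Both hypomorph arrays lay above both control arrays, but the control arrays differed from each other about as widely as the groups did. The centred change was 1.87 ± 0.49 (SE; limma adjusted p = 0.217), and the 300-neighbour change was 1.67 ± 0.57. Control 2, the lowest array, carried most of it: without it the centred change was 0.82 and the 300-neighbour change 0.53. The centred change was 2.91 without control 1, which left control 2 as the only control array, and 1.88 without hypomorph 1. Without centring the gene passed an adjusted p of 0.05 (2.19, limma adjusted p = 6.59e-06). In that setting 84 probe sets passed, against 14 in the main fit, and the median change of all tested genes was 0.54. Rpl39 is also listed on a much brighter probe set with several symbols, so this dim probe set may not read the bulk of its messenger RNA.

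Below Rpl39 came other dim or moderate probe sets. Rpl37, of the large subunit, had 1845 and 1389 on the hypomorph arrays, against 848 and 1072 on the control arrays. Its centred change was 0.42 ± 0.13 (limma adjusted p = 0.243) and its 300-neighbour change 0.19 ± 0.09. Rps27l, a p53 target closely related to Rps27, had 2831 and 2090 on the hypomorph arrays, against 1451 and 1799 on the control arrays, a 300-neighbour change of 0.06 ± 0.09. Rps27 itself had 91.7 and 105 on the hypomorph arrays, against 62.4 and 54.5 on the control arrays, a change of 0.20 ± 0.28. Rpl27a and Rpl14 stood at 0.18 and 0.02 on that scale, with standard errors of 0.47 and 0.19. For Rps27l, Rps27, Rpl27a and Rpl14 these values are smaller than their standard errors.

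The 4 dimmest members fell under the filter on low signals. The groups overlapped for Rpl39l and Rps4l, and did not for Rpl3l and Rps16, at signals close to the floor of the array. Rpl39l, a form of Rpl39 used in mouse male germ cells, had 53.5 and 7.00 on the hypomorph arrays, against 17.8 and 47.2 on the control arrays. Rpl3l had 13.5 and 5.06 on the hypomorph arrays, against 2.39 and 1.87 on the control arrays. Rps4l had 7.99 and 1.46 on the hypomorph arrays, against 2.89 and 16.5 on the control arrays. Rps16, a constitutive small-subunit protein, had a single-symbol probe set at 0.888 and 0.472 on the hypomorph arrays, against 4.65 and 1.21 on the control arrays, far below a brighter probe set with several symbols.

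Different probe sets of one gene gave different changes, and brightness went with part of these differences. A group of 8 genes, Rpl22, Rpl37a, Rpl41, Rps10, Rps18, Rps24, Rps3 and Rps9, had a probe set over 4000 and another tested one under 1000, and the dim probe set had the higher centred change in 8 of 8. The gap was small for Rps10, -0.093 against -0.102, and for Rps24, -0.091 against -0.169. Such pairs among other genes were not counted. For Rps18 the values were 0.43 at a signal of 30.7 and -0.05 at 8667, and for Rpl37a 0.40 at 334 and -0.09 at 8148. Rps10 varied most, by 0.72 log2 units on the 300-neighbour scale over 6 tested probe sets. One of its bright probe sets, of the kind that may match other genes, had 7310 and 5543 on the hypomorph arrays, against 2901 and 4092 on the control arrays, while the probe set that stands for the gene had 11025 and 9905 on the hypomorph arrays, against 8193 and 9737 on the control arrays. The centred change was 0.56 for the first and -0.10 for the second, both of them bright. The probe sets with several symbols were similar: of 74 with a mean over 4000, 72 lay below 0 on the 300-neighbour scale, with a median of -0.20. On centred values 57 of the 74 lay below 0. Other genes over 4000 also lay mostly below 0 on the 300-neighbour scale, 69 of 86.

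Ribosomal proteins outside the naming rule were read alongside, as was a second list of translation factors and other genes with TOP messenger RNAs. Of the first list 4 of 6 genes were on the array, with a centred median of 0.06, against 0.21 for all tested genes. Rps3a1, of the small subunit, was as bright as the members and gave 12326 and 11538 on the hypomorph arrays, against 8865 and 10710 on the control arrays. Of the second list 14 of 15 genes were tested, with a centred median of 0.13. Eef1a1, which carries aminoacyl-tRNA to the ribosome, had 10042 and 9756 on the hypomorph arrays, against 8705 and 9598 on the control arrays, a 300-neighbour change of -0.35. Tpt1, a TOP gene for a growth-related protein, had 9448 and 9705 on the hypomorph arrays, against 9007 and 8641 on the control arrays, also -0.35. Pabpc1, the cytosolic poly(A)-binding protein, stood at -0.17 and the less bright Nap1l1, a histone chaperone, at 0.11. No gene of either list was called by limma in either fit. In the second list Eef1a1 and Tpt1 had an unadjusted limma p under 0.05 on the 300-neighbour scale, where 5.92% of all tested genes did. Both are among the 19 other brightest genes, of which 10 passed at that threshold.

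Regulators of TOP messenger RNAs, ribosome assembly factors and ribosome quality control genes were also without a call by limma, in either direction, and 3 of them, Mtor, Rrp12 and Bysl, had an unadjusted p under 0.05 on the 300-neighbour scale, a share no larger than the 5.92% of all tested genes. Mtor, the kinase at the head of the TOP pathway, had 352 and 269 on the hypomorph arrays, against 246 and 273 on the control arrays, groups that overlapped as deposited. Its hypomorph arrays lay below its control arrays on the centred and 300-neighbour scales, with changes of -0.08 ± 0.14 and -0.35 ± 0.13. Larp1, which binds the TOP motif, had 640 and 462 on the hypomorph arrays, against 369 and 411 on the control arrays. The 9 tested genes of that list had a centred median of 0.16. The 48 tested assembly genes had one of 0.27, with 29 above the median gene. In that list Rrp12, an export and processing factor for ribosomal subunits, had a centred change of 1.03 ± 0.40 (limma adjusted p = 0.282). Its signals were 66.8 and 32.3 on the hypomorph arrays, against 10.8 and 25.5 on the control arrays. The centred change was -0.27 ± 0.17 for Bysl, needed to build the small subunit, and -0.09 ± 0.16 for Myc, which drives ribosomal genes. On the 300-neighbour scale Rrp12 stood at 1.05 ± 0.41, Bysl at -0.48 ± 0.17 and Myc at -0.31 ± 0.14. The 11 tested quality control and ribophagy genes had a centred median of 0.25. Mdm2, the ubiquitin ligase bound by Rpl11, had 564 and 389 on the hypomorph arrays, against 232 and 322 on the control arrays, a centred change of 0.45 ± 0.15 (limma adjusted p = 0.248).

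Markers of the cells in the preparation were read beside these values. Of 16 thymocyte markers 14 were tested, with summed signals of 64738 and 53675 on the hypomorph arrays, against 38910 and 51634 on the control arrays, so markers of the labelled cells were present on all 4 arrays. Granulocyte markers summed to 2887 and 3513 on the hypomorph arrays, against 535 and 5526 on the control arrays, so control 1, which was lowest for most bright members, also held the least. Sums of B cell markers were 606 and 454 on the hypomorph arrays, against 477 and 675 on the control arrays, macrophage sums were 751 and 325 on the hypomorph arrays, against 514 and 506 on the control arrays, and dendritic cell sums were 3612 and 2728 on the hypomorph arrays, against 2962 and 3040 on the control arrays. Thymic epithelial sums were 416 and 210 on the hypomorph arrays, against 192 and 222 on the control arrays. None of the 4 erythroid markers with a single-symbol probe set was bright enough to test, with sums of 37.1 and 37.3 on the hypomorph arrays, against 34.1 and 44.5 on the control arrays. On the 300-neighbour scale, B cell markers had a median change of -0.62 (5 of 6 below 0), macrophage markers one of -0.62 (6 of 6) and dendritic cell markers one of -0.40 (6 of 7), against -0.06 for thymocyte markers and 0.28 for granulocyte markers. An unadjusted limma p under 0.05 on that scale was reached by 5 of 6 B cell, 2 of 6 macrophage and 3 of 7 dendritic cell markers. It was reached by 1 of 14 thymocyte, 0 of 6 granulocyte and 0 of 4 thymic epithelial markers, and by 5.92% of all tested genes. No marker passed an adjusted p of 0.05. The part of these cells in the ribosomal protein values was not tested. In bulk RNA, fewer cells of a type and less RNA per cell cannot be told apart.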

How the data were processed

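The authors deposited 1 intensity per probe set and array, on a linear scale, and the submitters' processing notes name GCOS, a program of the array maker, for it. RNA was isolated with a Qiagen column kit and labelled with biotin, per the labels' protocols. Its version and scaling are unstated in the sources used here. Of 45101 probe sets, 64 controls were left out, and 34945 of the 45037 kept carry 1 gene symbol in the platform annotation, 932 several and 9160 none.

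From the deposited intensities, log2(signal + 2.29) was computed, with the 10th percentile of the signals as pseudocount, so a change is on the log2(value + pseudocount) scale and understates that of dim genes. Arrays were then centred to 1 median. The 22519 probe sets whose mean was at or above the median of means were tested, of 10232 genes, by two-sided limma (version 3.58.1, R 4.3.3; eBayes with a variance trend, no covariates) and Benjamini-Hochberg adjustment at 0.05. A second fit used values adjusted to the 300 nearest genes in signal. The script was tested on simulated data. In that simulation limma called 2.69% of imposed 1.5-fold changes, 39.1% of 2-fold ones and 88.2% of 4-fold ones. The lack of a call therefore does not show that a member was unchanged. The number of arrays limits the precision, and depth has no counterpart here.

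The members and gene lists were chosen with earlier results of these data known. Named genes are the 6 brightest and 4 dimmest members, the 6 highest and 6 lowest on the 300-neighbour scale, members with set roles, the 4 with the widest probe set spread, and up to 4 genes of each list. Alternatives covered the normalization, pseudocount, filter, variance model, neighbours, probe set per gene and replicates.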

Additional observations from a re-analysis of the deposited data

How the results depend on the processing

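The count of called probe sets on centred values, 14, became 4 with quantile normalization, 4 with cyclic loess, 7 with centring on the tested probe sets, 84 without centring, 4 without the filter and 0 without the variance trend, where 2 members had an unadjusted limma p under 0.05. On the 300-neighbour scale the count of 5 became 1 without the filter, 1 with the filter at the 75th percentile, 3 with 25 neighbours and 0 without the variance trend, where no member had an unadjusted limma p under 0.05. Leaving out each array in turn gave 9 to 421 calls on centred values and 3 to 266 on the 300-neighbour scale, 421 and 266 without hypomorph 1, and the array left alone in its group was then assumed to vary like the other group. The median change of the 42 members, -0.03 on centred values, was -0.20 with centring on the tested probe sets, 0.30 without centring and -0.18 to 0.13 when each array was left out. Set against the median of all tested genes, it was -0.35 to -0.13 when each array was left out. On the 300-neighbour scale the median of -0.17 was 0.0225 with quantile normalization, -0.0836 with cyclic loess, -0.0130 with 25 neighbours, 0.0022 with the line and -0.22 to -0.09 when each array was left out. The mean over all probe sets of a gene gave -0.12, and probe sets without an x or s suffix, which 36 genes had, gave -0.14. The cause of these shifts was not tested. No member other than Rpl39 was called under any of these alternatives. On the 300-neighbour scale the 10 members with an unadjusted limma p under 0.05 became 6 with 100 neighbours, 2 with 25, 1 with the line and 1 to 20 when each array was left out. Of 430 values of 24 named members under the alternatives, 47 moved by more than the spread between replicates. Same-numbered arrays deviated from their group means with a correlation of 0.08 over the tested probe sets and -0.52 over the 33 bright members, so the numbers were not taken to pair the mice; with the replicate block, 9 probe sets were called on centred values and 9 on the 300-neighbour scale, 3 members had an unadjusted p under 0.05 on that scale, and the medians of the members stayed at -0.03 and -0.17.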
